A study of Mus musculus with 8 samples.

Results

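The 2 libraries of line 16-6 were compared with the 2 libraries of line R1, which together make up 4 of the 8 RNA-seq libraries of the series. R1 is a mouse embryonic stem cell (ESC) line. Line 16-6 is a secondary induced pluripotent stem cell (iPSC) line. It was obtained from c-Kit-selected hematopoietic progenitors of the bone marrow of 8-week-old all-iPSC mice, whose cells carry copies of Oct4, Klf4, Sox2 and c-Myc, the 4 factors used for reprogramming, under the control of doxycycline. Doxycycline was withdrawn once colonies had formed, and the files do not separate transcripts of the inducible copies from those of the endogenous genes. Both lines were grown in medium with leukemia inhibitory factor (LIF) on fibroblasts of ICR mouse embryos that had been treated with mitomycin C. RNA of these feeder cells can be part of every library, so that fewer fibroblasts and less RNA per fibroblast cannot be told apart. Each line was 1 derivation, R1 was the only ESC line, and the strain of neither line was given in the sources used here. The labels name embryo as the tissue and describe frozen embryos, whereas the study's methods describe cell pellets. Genes entered the comparison when they reached 1 FPKM (a fragment count set against transcript length and library size) in at least 1 of the 4 libraries, which held for 13383 of 22878 gene entries.

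Pluripotent stem cells of the mouse keep a network of transcription factors, with Oct4 (Pou5f1), Sox2 and Nanog at its core, that holds them in an undifferentiated state. LIF supports the naive form of this state, in which genes such as Zfp42, Esrrb and Tbx3 are active. Cells that leave it pass through a formative stage and then turn on genes of the primitive streak, the neural plate or other early tissues. Fibroblasts are known for a different program. They secrete the collagens, proteoglycans and crosslinking enzymes of the extracellular matrix and, when activated, make the smooth muscle actin and the calponins of contractile fibers.

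The 4 libraries rested on 15.5 to 16.4 fragments each in units of 1000000, as implied by the confidence limits in the files. Replicate libraries were close, with a Spearman's rho across all genes of 0.9743 in R1 and 0.9742 in 16-6. Over genes whose implied fragments were whole numbers to within 0.01, the variance between the libraries was 1.34 times that of Poisson sampling in R1 (5308 genes) and 1.08 times in 16-6 (4921 genes). The chi-square test over genes still found an excess in 16-6 (p = 9.63e-05). Over this many genes a small excess passes the test, so it cannot show whether the libraries were separate cultures. The libraries of 16-6 were kept as 2 samples. The study's methods call the replicates biological, but no source used here says that they were separate cultures, so the p-values below measure the spread between these libraries, which may be technical. Markers of the cell types that the cultures could hold were read in every library. All 8 pluripotency markers were at 86.4 FPKM or more in every library. They summed to 4044 and 4407 FPKM in R1 and to 2605 and 2669 FPKM in 16-6, and all 8 differences were below 0, 2 of them called. All 8 fibroblast markers were at 7.08 FPKM or more. They summed to 804 and 834 FPKM in R1 and to 1485 and 1466 FPKM in 16-6. Of these, Col1a1, Col1a2, Thy1 and Postn were called higher in 16-6, Dcn and Lum were called lower, and Col3a1 and Pdgfrb were not called. The markers of hematopoietic cells summed to 34.4 and 39.0 FPKM in R1 and 14.8 and 15.6 FPKM in 16-6, and 4 of the 8 stayed below 1 FPKM in all 4 libraries.

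Of the 13383 genes, 977 (7.30%) were called different, of which 490 (3.66%) were higher and 487 (3.64%) were lower in 16-6. A call required a limma adjusted p below 0.05 and a log2 difference of FPKM + 1 of at least 1, that is a 2-fold change on this scale. The differences were spread evenly around 0, with a median of -0.03 over all genes. Among the called genes, 77 were at least 4-fold higher and 47 at least 4-fold lower. An exact permutation test of 2 libraries against 2 cannot give a p below 0.33 for a single gene, so the calls rest on the model across all genes. The replicate spread was small enough that 7628 genes (57.0%) had an adjusted p below 0.05 when no minimum fold was required. Genes of the fibroblast lists made up 68 of the 977 called genes, and the other 909 lay outside them. The share called in a list can be read against the 7.30% of all genes. The 2 lines did not overlap in any of the 977 called genes. A call already requires a large difference beside a small spread. How many of all tested genes did not overlap was not counted. The filter let in 404 genes that were below 1 FPKM in both R1 libraries and 764 that were below it in both libraries of 16-6. Such genes had to be higher in at least 1 library of the line through which they passed, and 86 and 169 of them were called, against 722 of the 12215 genes that reached 1 FPKM in both lines.

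**Figure D1:**
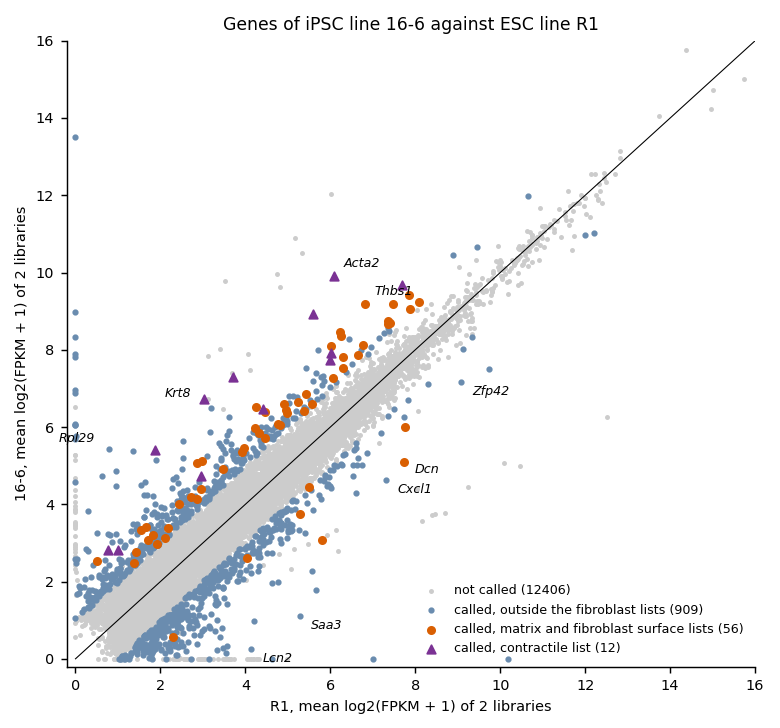
Mean log2(FPKM + 1) of the 2 R1 libraries (x axis) against that of the 2 libraries of 16-6 (y axis) for the 13383 tested genes, each point 1 gene, with the diagonal drawn as a line. Of the 68 called fibroblast genes, the 12 contractile genes (triangles) all lie above the diagonal, whereas the 909 other called genes (blue) lie on both sides.

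The genes of the fibroblast matrix were mainly higher in 16-6. The 5 lists of matrix genes held 79 tested genes, of which 41 rose, 7 fell and 31 were not called, with a median log2 difference of 1.05. Their FPKM summed to 5889 and 6346 in the R1 libraries and to 9789 and 9819 in those of 16-6. The separate lists did not move as 1 block, as the following genes show.

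Among the collagens, 6 of 15 tested genes rose and none fell (median log2 difference 0.63). Col1a1 and Col1a2 encode the chains of type I collagen, the main fibrillar collagen of connective tissue. Col1a1 was at 174 and 180.1 FPKM in R1 and at 599.8 and 566.5 FPKM in 16-6, a log2 difference of 1.71 (SE 0.05, limma adjusted p = 2.81e-05). Col1a2 stood at 152.5 and 172.6 FPKM in R1 and 417.8 and 435.9 FPKM in 16-6 (log2 difference 1.39, SE 0.07). The largest difference in this list was that of Col12a1, a collagen on the surface of fibrils, with 20.4 and 22.04 FPKM in R1 and 81.5 and 85.4 FPKM in 16-6. Col5a1 and Col5a2, whose chains start fibril assembly, were also called, by 1.48 and 1.68 on the log2 scale. Col3a1, the fibrillar collagen of elastic tissues, stood apart from these. It was at 102.6 and 108.7 FPKM in R1 and 93.2 and 90.2 FPKM in 16-6, a log2 difference of -0.20 (SE 0.05) that did not reach 2-fold.

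The proteoglycans split in both directions, with 3 of 10 genes higher and 3 lower in 16-6. Decorin (Dcn) and lumican (Lum), small leucine-rich proteoglycans that bind collagen fibrils, were the lowest. Dcn was at 216.5 and 204 FPKM in R1 and at 32.9 and 33.3 FPKM in 16-6, a log2 difference of -2.63 (SE 0.09, limma adjusted p = 3.74e-05). Lum was at 50.6 and 59.3 FPKM in R1 and 7.08 and 7.91 FPKM in 16-6 (log2 difference -2.72, SE 0.10). Some relatives of the same family went the other way. Fibromodulin (Fmod) was at 0.434 and 0.394 FPKM in R1 and 4.73 and 4.88 FPKM in 16-6, and asporin (Aspn) at 1.44 and 1.92 FPKM against 6.61 and 5.05 FPKM. Fmod passed the filter through 16-6 alone, so it could be called in that direction only. Biglycan (Bgn) rose as well, by 1.19 on the log2 scale, from 231.8 and 235.7 FPKM to 539.5 and 527.2 FPKM.

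Matricellular and adhesive proteins, which tune how cells bind the matrix, had 8 of 15 genes higher and 1 lower (median 1.16). Thrombospondin 1 (Thbs1), which activates latent TGF-beta, was at 109 and 115 FPKM in R1 and 575 and 585 FPKM in 16-6 (log2 difference 2.36, SE 0.04). Periostin (Postn) was at 19.05 and 16.9 FPKM in R1 and 88.4 and 93.5 FPKM in 16-6. Ctgf, a growth factor-binding protein of the CCN family, was at 73.7 and 73.5 FPKM against 338 and 359 FPKM, and its relative Wisp1 at 5.98 and 6.50 FPKM against 32.0 and 32.8 FPKM. These 4 genes differed by more than 2 on the log2 scale. Tenascin C (Tnc), an adhesion-modulating glycoprotein, reached 687 and 682 FPKM in 16-6 against 225 and 239 FPKM in R1. The gene that fell was Tgfbi, a TGF-beta-induced adhesion protein, by 1.52 on the log2 scale, from 36.0 and 39.7 FPKM to 11.99 and 13.1 FPKM.

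Genes for crosslinking and elastic fibers had 13 of 23 members higher and 1 lower (median 1.06). The lysyl oxidase-like gene Loxl3, whose product links collagen and elastin chains, was at 6.68 and 7.20 FPKM in R1 and 34.2 and 33.7 FPKM in 16-6. The fibulins Fbln2 and Fbln5, which bind elastic fibers, rose by 2.07 and 1.79 on the log2 scale, and Ltbp1, which holds latent TGF-beta in the matrix, by 1.73. Elastin itself (Eln) was the member that fell, from 3.95 and 3.82 FPKM in R1 to 0.570 and 0.381 FPKM in 16-6 (log2 difference -1.73, SE 0.11). Eln passed the filter through R1 alone, so it could be called in that direction only. Proteases of the matrix and their inhibitors had 11 of 16 genes higher and 2 lower (median 1.25). Pappa, a protease of IGF-binding proteins, and the collagenolytic cathepsin Ctsk rose by 1.76 and 1.57. The collagenase Mmp13 and the stromelysin Mmp3 fell, the latter from 202 and 230.0 FPKM in R1 to 63.2 and 62.7 FPKM in 16-6.

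The contractile genes had the highest median of the 43 lists, 2.03, and 12 of the 14 rose while none fell. Smooth muscle actin (Acta2, chr19:34315581-34329826 in mm9) was at 68.7 and 65.5 FPKM in R1 and at 966 and 968 FPKM in 16-6, a log2 difference of 3.83 (SE 0.04, limma adjusted p = 1e-06). Enteric smooth muscle actin (Actg2) was at 6.65 and 7.74 FPKM in R1 and 104 and 107 FPKM in 16-6. The myosin light chain Myl9 was at 11.6 and 12.7 FPKM against 156.6 and 154 FPKM. The groups were far apart in all of these genes and the replicates within them close. Calponin 1 (Cnn1), an actin-binding protein of smooth muscle, was at 2.65 and 2.72 FPKM in R1 and 41.5 FPKM in both libraries of 16-6. Desmin (Des) and the myosin light chain kinase Mylk were the members not called, with log2 differences of 0.46 and 0.47. The 14 genes summed to 503 and 510 FPKM in R1 and to 3197 and 3152 FPKM in 16-6, whereas the fibroblast markers given above differed by a smaller ratio. The part that the number or the state of the feeder fibroblasts has in these differences was not tested.

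Contractile genes are known targets of serum response factor (SRF), which binds the CArG box, 2 C, 6 bases that are A or T, and 2 G. The promoter windows of RefSeq (build GRCm38.p6, 250 bases before to 50 after the start) hold 8 of the 12 called contractile genes. A CArG box was found on either strand, since the motif reads alike on both, in 2 of these 8 genes, Cnn2 and Myl9, and in 488 of the 27025 genes of the table (1.81%). The windows of both are shown up to the start site because they carry the motif of the list with the largest median, and that of the skeletal muscle actin Acta1 is added as the contractile gene among those with the largest differences outside the lists. Capitals mark the CArG box, which begins 56 bases before the start in Cnn2, 161 in Myl9 and 73 in Acta1.
Cnn2, chr10:79988350-79988599, + strand: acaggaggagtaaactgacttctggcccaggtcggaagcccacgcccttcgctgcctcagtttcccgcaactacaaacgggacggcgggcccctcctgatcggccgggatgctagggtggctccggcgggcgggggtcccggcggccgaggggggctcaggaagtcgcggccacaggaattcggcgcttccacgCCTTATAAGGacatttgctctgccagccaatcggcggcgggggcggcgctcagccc
Myl9, chr2:156775214-156775463, + strand: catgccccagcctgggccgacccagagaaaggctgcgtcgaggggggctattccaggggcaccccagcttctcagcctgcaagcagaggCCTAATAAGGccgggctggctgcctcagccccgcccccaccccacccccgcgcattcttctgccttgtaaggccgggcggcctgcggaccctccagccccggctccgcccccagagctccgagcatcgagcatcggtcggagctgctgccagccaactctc
Acta1, chr8:123894776-123895025, - strand: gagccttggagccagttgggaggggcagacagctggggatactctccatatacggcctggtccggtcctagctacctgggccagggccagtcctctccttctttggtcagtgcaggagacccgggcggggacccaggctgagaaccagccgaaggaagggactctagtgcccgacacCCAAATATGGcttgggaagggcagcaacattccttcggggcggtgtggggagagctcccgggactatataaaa
A match is a run of letters and no measurement of binding. Cnn2 was at 60.2 and 65.2 FPKM in R1 and 214.5 and 210.9 FPKM in 16-6, and Acta1 at 1.93 and 1.21 FPKM against 39.2 and 42.4 FPKM.

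Surface and transcription factor genes of fibroblasts rose in 8 of 20 tested members and fell in none (median 0.79). Thy1, a surface glycoprotein used to sort fibroblasts, was at 77.0 and 79.2 FPKM in R1 and 226 and 219 FPKM in 16-6. The receptor kinase Axl, the hyaluronan receptor Cd44 and the cadherin Cdh11 rose by 1.53, 1.43 and 1.39 on the log2 scale. Basement membrane genes had 3 of 15 members called, all higher. Col4a1 and Col4a2, which form the type IV collagen of basement membranes, rose by 1.62 and 1.53, Col4a1 from 23.2 and 23.5 FPKM to 73.75 and 73.85 FPKM.

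**Figure D2:**
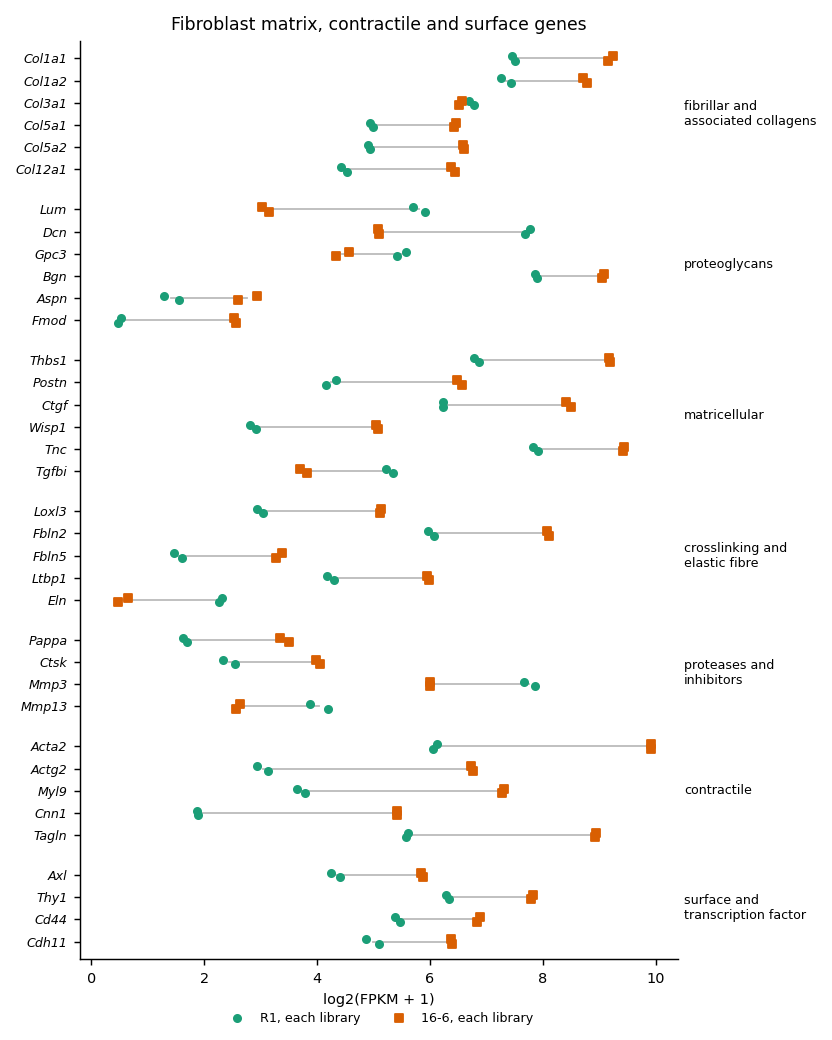
log2(FPKM + 1) of fibroblast genes in each library (circles R1, squares 16-6, the line joining the group means), grouped by list. Most genes lie to the right in 16-6, with the widest gaps in Acta2, Actg2, Myl9, Cnn1 and Tagln, while Lum, Dcn, Gpc3, Tgfbi, Eln, Mmp3 and Mmp13 lie to the left.

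Outside the fibroblast lists, 429 genes were higher and 480 lower in 16-6 among 13270 tested. The core pluripotency list had 11 tested genes, of which 1 was called. That gene was Zfp42 (Rex1), a zinc finger gene of naive cells, at 541 and 544 FPKM in R1 and 141 and 144 FPKM in 16-6 (log2 difference -1.92, SE 0.05, limma adjusted p = 2.31e-05). Pou5f1 was at 605 and 636 FPKM in R1 and 485 and 492 FPKM in 16-6, a log2 difference of -0.34 (SE 0.05). Sox2 was at 263 FPKM in both R1 libraries and at 157 and 162 FPKM in 16-6 (-0.71, SE 0.04), and Nanog differed by -0.17 (SE 0.04). These 3 genes stayed below a 2-fold difference, as did Lin28a (0.36), an RNA-binding protein that blocks let-7, and Myc (0.09). Of the 11 genes, 9 had a difference below 0. The summed pluripotency markers were lower and the summed fibroblast markers higher in the same libraries of 16-6, and the part of these shifts in the differences of the core and naive genes was not tested.

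The naive pluripotency list had 5 of 15 genes lower in 16-6 and none higher, with a median of -0.81. Esrrb, an orphan nuclear receptor that works with Nanog, was at 184 and 175 FPKM in R1 and 86.4 and 87.1 FPKM in 16-6. Nr0b1, a nuclear receptor partner of Oct4, and Tcl1, a cofactor of AKT, fell by 1.35 and 1.42 on the log2 scale. Tbx3 fell by 1.15, from 42.5 and 39.6 FPKM to 17.7 and 18.3 FPKM, and Prdm14 by 1.02. Prdm14 lost its call without the first library of 16-6. Klf4 lay just below the 2-fold limit, with 126 and 130.2 FPKM in R1 and 64.1 and 64.3 FPKM in 16-6 (log2 difference -0.99, SE 0.04). It was called without the first R1 library (-1.01) and with quantile normalization (-1.02). Lifr, a receptor chain for LIF, was the 1 gene called of 13 in the LIF and STAT3 list, at 21.95 and 22.8 FPKM in R1 and 8.64 and 8.97 FPKM in 16-6. Formative and primed genes split, with Fgf5 and Cdh2 among the genes higher and Otx2 among those lower of 14. Fgf5, a growth factor of the epiblast, was at 6.56 and 6.94 FPKM in R1 and 15.2 and 16.6 FPKM in 16-6. The homeobox gene Otx2 went from 62.1 and 65.3 FPKM in R1 to 20.7 and 20.1 FPKM in 16-6.

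The 2-cell-like state is a rare state of ESC cultures with transcripts of the early embryo. The 6 tested members are all Zscan4 genes, which act in telomere maintenance. They were called, but each was below 1 FPKM in both libraries of 16-6 and passed the filter through R1 alone, so that each had to be lower in 16-6. With 1 FPKM required in all 4 libraries, 0 of the list were called. Zscan4a was at 4.04 and 4.07 FPKM in R1 and 0.393 and 0.145 FPKM in 16-6 (log2 difference -2.001, SE 0.12), and the other 5 fell by 1.00 to 1.79. These genes are near-identical copies, so their separate values are uncertain, and Zscan4b was not called without the first 16-6 library (-0.97), without the first R1 library (-0.97) or with quantile normalization (-0.81). Another 9 members of the list were below the expression filter. Germline genes were lower in 5 of 17 members and higher in 1. Sycp3, a part of the synaptonemal complex of meiosis, was at 21.2 and 26.5 FPKM in R1 and 6.74 and 4.83 FPKM in 16-6, and Syce1, another part of it, fell by 1.18. Rhox6, a homeobox gene of the germ line and placenta, was the member that rose (1.09), and it was not called without the second R1 library (0.96).

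Primitive streak genes were higher in 16-6, with 4 of 6 tested genes called and a median of 1.67. Of the 6, 3 passed the filter through 16-6 alone, and 1 of these, Cdx1, was called. Fgf8, a growth factor of the streak, was at 2.24 and 1.65 FPKM in R1 and 20.8 and 22.6 FPKM in 16-6 (log2 difference 2.96, SE 0.12). Brachyury (T), the mesoderm T-box factor, was at 1.88 and 2.28 FPKM in R1 and 11.8 and 11.6 FPKM in 16-6. Cdx1, a caudal homeobox gene, and Eomes, a T-box gene of the streak, rose by 2.02 and 1.32. The level of Fgf8, the highest of them in 16-6, remained far below the 485 and 492 FPKM of Pou5f1. Neuroectoderm genes had 2 of 7 members higher and 1 lower. The bHLH factor Olig2 was at 0.0207 and 0 FPKM in R1, from 1 and 0 implied fragments, and at 4.75 and 4.47 FPKM in 16-6, from 207 and 201. Of the 7 members, 2 passed the filter through 16-6 alone and had to be higher there. Olig2 was the 1 of these that was called. Nestin (Nes), an intermediate filament of neural progenitors, rose from 10.04 and 10.2 FPKM to 42.3 and 41.4 FPKM. The Notch ligand Dll1 was lower (-1.04), and not called without the first R1 library (-0.96). Of the primitive endoderm list 4 genes were tested and none was called, and of the trophoblast list 1 of 7 was called, Krt19, a keratin of simple epithelia (1.18).

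Keratins and junction genes of epithelia were called in 5 of 20 members, all higher in 16-6. Krt8 and Krt18 encode the keratin pair of simple epithelia and were the most different. Krt8 (chr15:101827142-101834773 in mm9) was at 8.89 and 7.55 FPKM in R1 and 87.7 and 89.7 FPKM in 16-6, a log2 difference of 3.29 (SE 0.08, limma adjusted p = 1.74e-05). Krt18 was at 7.34 and 8.69 FPKM against 57.3 and 58.5 FPKM. The tight junction claudins Cldn7 and Cldn6 rose by 1.59 and 1.27. E-cadherin (Cdh1), the main adhesion molecule of ESC colonies, was not called, at 155 and 151 FPKM in R1 and 159.7 and 158.6 FPKM in 16-6. A further epithelial group came from the cornified envelope, the protein shell of the outer epidermis, with 3 Lce1 genes among the 15 largest differences outside the fibroblast lists. Lce1g was at 0.774 and 1.13 FPKM in R1 and 25.3 and 31.4 FPKM in 16-6, and Lce1f and Lce1h rose by 3.51 and 3.53 on the log2 scale. Lce1h passed the filter through 16-6 alone, so it could be called in that direction only. The Lce1 genes are similar in sequence, so reads may not be placed between them with certainty.

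The Hox genes, which set position along the body axis and remain active in many fibroblasts, rose in 15 of 26 tested members and fell in none (median 1.005). Their levels were low in both lines and summed to 23.2 and 23.4 FPKM in R1 and to 87.7 and 81.8 FPKM in 16-6. Hoxb9 was the highest, at 3.16 and 3.36 FPKM in R1 and 14.1 FPKM in both libraries of 16-6, and Hoxc6 followed with 1.83 and 2.31 FPKM against 11.6 and 11.7 FPKM. Hoxc8 and Hoxb6 rose by 1.62 and 1.63. Of the 26 genes, 19 were below 1 FPKM in both R1 libraries and passed the filter through 16-6 alone, so that they had to be higher there, and 10 of the 15 calls were among them. The other 7 reached 1 FPKM in both lines, and 5 of these were called. With 1 FPKM required in all 4 libraries, 2 Hox genes were called. Hoxa9, a Hox gene of blood progenitors, was at 0.507 and 0.536 FPKM in R1 and 2.01 and 1.76 FPKM in 16-6. It was not among the 15 calls (log2 difference 0.92, SE 0.10), but was called with pseudocount 0.1 (1.67). It passed the filter through 16-6 alone. The calls of Hoxb5 and Hoxc4 were lost without the first 16-6 library (0.85 and 0.95) and without the second R1 library (0.97 and 0.98). The 8 fibroblast markers did not move together in these libraries (4 higher, 2 lower, 2 not called), and their part in the Hox differences was not tested.

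**Figure D3:**
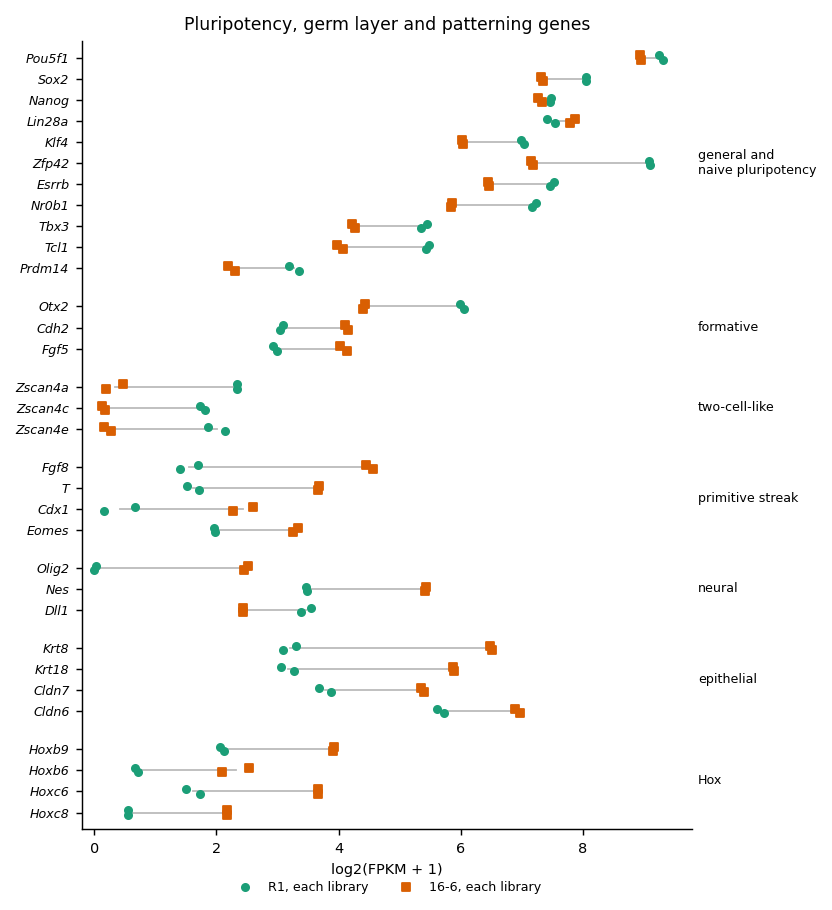
log2(FPKM + 1) of pluripotency, germ layer, epithelial and Hox genes in each library (circles R1, squares 16-6, the line joining the group means). Pou5f1, Nanog and Lin28a nearly overlap, Zfp42 and the naive genes lie to the left in 16-6, and the primitive streak, keratin and Hox genes lie to the right.

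Among the signaling lists, the share called was 17.2% for Wnt, 8.70% for Nodal and BMP, 4.76% for FGF and ERK and 22.2% for IGF. It was 14.3% in the list of p53 targets and G1 regulators, against 7.30% of all genes. Each share rested on at most 5 called genes. The Wnt list had 4 of 29 members higher and 1 lower. The ligand Wnt3, which induces the streak, was at 0.528 and 0.561 FPKM in R1 and 3.06 and 3.69 FPKM in 16-6. It passed the filter through 16-6 alone, so it could be called in that direction only. The antagonist Dkk2, the receptor Fzd2 and the Wnt target Sp5 rose by 1.75, 1.34 and 1.34, and the receptor Fzd5 fell by 1.13. Of all genes whose symbol begins with Wnt, 5 of 9 were called and each was higher, 3 of them through 16-6 alone, with Wnt8a, another streak ligand, at 0.868 and 0.648 FPKM in R1 and 8.23 and 8.08 FPKM in 16-6. This symbol family was chosen for its high share of called genes. In the Nodal and BMP list the activin subunit Inhbb rose by 1.24, from 9.43 and 10.9 FPKM in R1 to 25.8 and 24.8 FPKM in 16-6. In the FGF and ERK list 1 of 21 was called, the immediate early gene Fos (1.07). The IGF list had the binding protein Igfbp7 higher (1.84), at 89.9 and 82.7 FPKM in R1 against 316 and 308 FPKM, and the binding protein Igfbp4 lower (-1.51) among 9. Of 21 targets of p53 and regulators of G1, 3 rose, namely the BH3-only gene Pmaip1 (1.61), cyclin D2 (Ccnd2, 1.22) and the CDK inhibitor Cdkn2b (1.09).

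**Figure D4:**
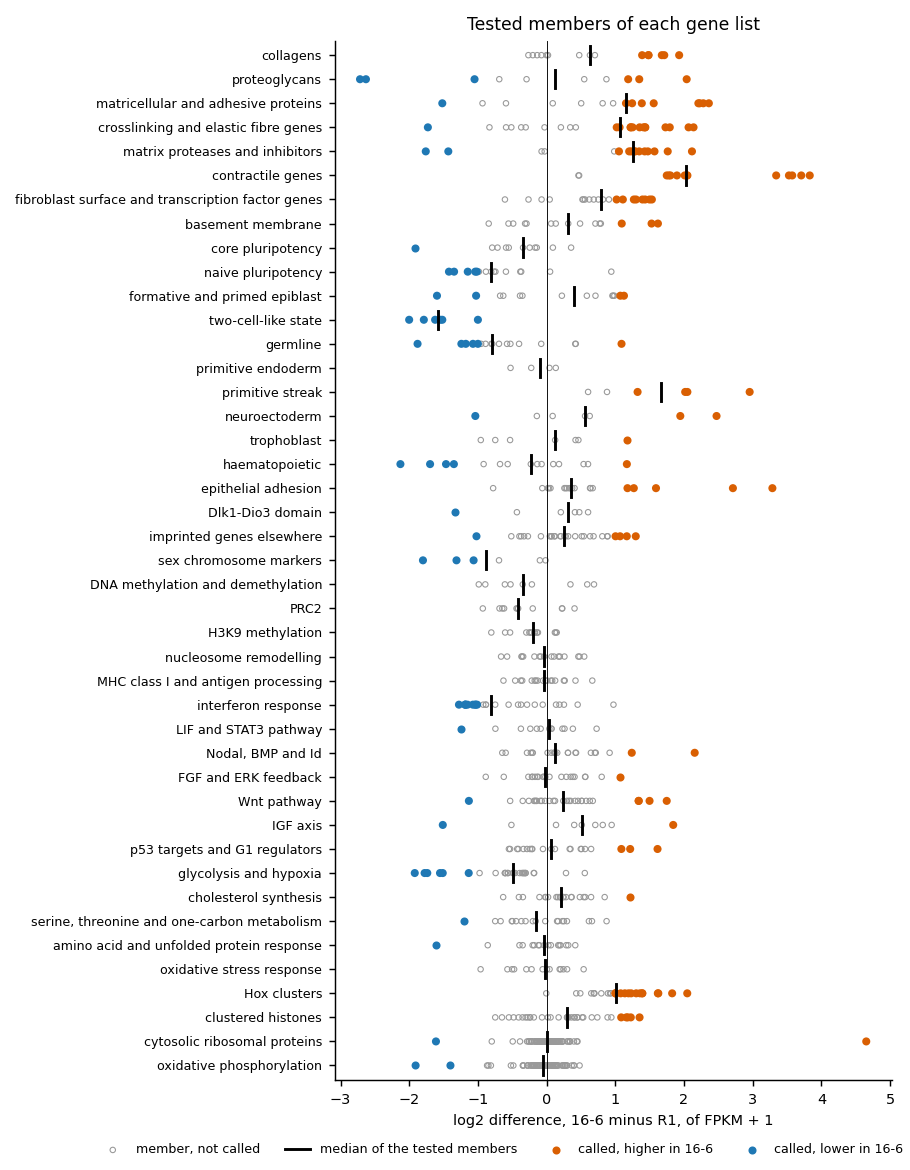
log2 difference of FPKM + 1, 16-6 minus R1 (x axis), of every tested member of the 43 gene lists (1 row per list). Filled points are called genes (orange higher, blue lower in 16-6), open points are genes not called, and bars are medians, which reach 2.03 in the contractile list and -1.59 in the 2-cell-like list.

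The largest falls outside the fibroblast lists included the following genes, which no list had grouped beforehand. Saa3, an acute phase protein made by macrophages and fibroblasts, was at 36.9 and 39.7 FPKM in R1 and 0.718 and 1.69 FPKM in 16-6, a log2 difference of -4.19 (SE 0.54, limma adjusted p = 0.00173). Lcn2, an iron-sequestering protein of neutrophils, was at 17.2 and 16.2 FPKM in R1 and 0.288 and 0.0968 FPKM in 16-6. The macrophage lysozyme Lyz2 was at 44.5 and 48.9 FPKM against 3.25 and 4.45 FPKM. Platelet factor 4 (Pf4), the chemokine Ccl3, the stefin Stfa3 and the inhibitor Serpina3n fell by 3.18, 3.38, 3.11 and 3.21 on the log2 scale. Lcn2, Pf4, Ccl3 and Stfa3 passed the filter through R1 alone, so they could be called in that direction only. The neutrophil chemokine Cxcl1 was the most abundant of these genes, at 145 and 174 FPKM in R1 and 23.5 and 23.6 FPKM in 16-6.  Of genes whose symbol begins with Ccl, 5 of 13 were called lower and 8 were not called, and 4 of the 5 passed the filter through R1 alone. Of those beginning with Cxcl, 4 of 9 were lower, 2 of them through R1 alone, and 1, Cxcl14, was higher. Both symbol families were chosen for their high share of called genes.

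The hematopoietic list, which covers the lineage from which 16-6 was derived, had 38 entries in the files, of which 15 passed the filter. Of these 4 fell, 1 rose and 10 were not called (median log2 difference -0.23). Of the 15 genes, 4 passed through R1 alone, 2 of which were called, and with 1 FPKM required in all 4 libraries the calls went from 5 to 2. Tyrobp, a signaling adaptor of myeloid cells, was at 4.17 and 2.70 FPKM in R1 and was listed at 0 in both libraries of 16-6. Laptm5, a lysosomal protein of blood cells, fell from 25.6 and 29.5 FPKM to 9.14 and 9.48 FPKM, and Cd34, a surface protein of blood progenitors and endothelium, from 26.6 and 27.3 FPKM to 7.86 and 7.404 FPKM. The integrin Itgam, found on myeloid cells, fell by 1.35. Gata2, a transcription factor of blood progenitors, was higher, at 0.981 and 1.17 FPKM in R1 and 3.86 and 3.47 FPKM in 16-6. Kit, the receptor by which the donor cells were selected and which ESCs express as well, was at 22.6 and 21.9 FPKM in R1 and 12.9 and 14.1 FPKM in 16-6 (log2 difference -0.68, SE 0.07). The red cell gene Slc4a1 and the pan-leukocyte gene Ptprc stayed below 0.5 FPKM in all 4 libraries and were not tested. Which cells of the cultures the transcripts of these genes came from was not tested.

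Interferon response genes were lower in 9 of 24 members and higher in none (median -0.82). Isg15, a ubiquitin-like antiviral protein, was at 7.83 and 10.3 FPKM in R1 and 2.82 and 3.45 FPKM in 16-6. The transcription factor Irf7, the RNA sensor Oas2 and the translation inhibitor Ifit1 fell by 1.19, 1.18 and 1.18, and Oas2 was not called with quantile normalization (-0.997). Of the 9 calls, 2 passed the filter through R1 alone, and 4 genes were called with 1 FPKM required in all 4 libraries. Class I MHC and antigen processing genes, which interferon can raise, had 0 of 18 members called (1 with pseudocount 0.1) and a median of -0.04.

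Genes of glycolysis and hypoxia fell in 6 of 27 members and rose in none, and 25 of the 27 had a difference below 0 (median -0.50). Egln3, a prolyl hydroxylase that is a target of HIF-1, was at 14.7 and 18.7 FPKM in R1 and 3.43 and 3.90 FPKM in 16-6. The stress gene Ndrg1 was at 34.2 and 32.6 FPKM against 8.59 and 9.5 FPKM, and the mitophagy receptor Bnip3 at 117 and 114 FPKM against 38.85 and 38.86 FPKM. The phosphofructokinase Pfkp, of the committed step of glycolysis, fell by 1.74. Ero1l, an oxidase of protein folding, and Pdk1, which closes the entry of pyruvate to the citrate cycle, were the remaining calls (-1.51 and -1.13). Outside the list, the HIF target Ndufa4l2 was among the largest falls, at 49.9 and 49.8 FPKM in R1 and 2.04 and 2.90 FPKM in 16-6. In the list of oxidative phosphorylation 2 of 81 genes were called. Both are tissue isoforms of cytochrome oxidase subunits, Cox4i2, known from lung (-1.91), and Cox7a1, known from muscle (-1.40).

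**Figure D5:**
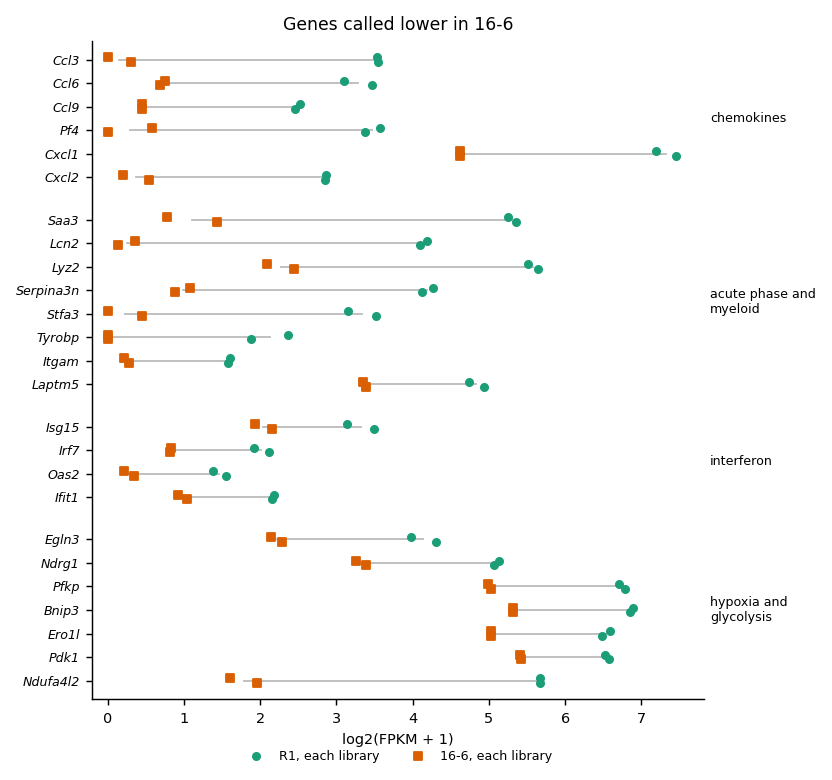
log2(FPKM + 1) of genes called lower in 16-6 in each library (circles R1, squares 16-6, the line joining the group means). The genes were chosen among those called lower, and Ccl3, Pf4, Stfa3 and Tyrobp reach 0 in at least 1 library of 16-6.

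Chromatin genes were not called in the 4 lists that held them. They comprised 9 genes of DNA methylation and demethylation (median -0.35), 11 of PRC2 (-0.42), 14 of H3K9 methylation (-0.20) and 17 of nucleosome remodeling (-0.04). Of the DNA methylation genes 1 was called without the second library of 16-6 and 1 with quantile normalization, and of the PRC2 genes 1 with pseudocount 0.1. The oxidative stress list had no call among 14, and 1 without the second library of 16-6 or the second of R1. In the list of serine and folate metabolism 1 of 19 genes was called, cystathionine synthase (Cbs), which fell by 1.21. The amino acid and unfolded protein list had the cystine transporter Slc7a11 lower (-1.61) among 17, and none with 1 FPKM required in all 4 libraries. Clustered histone genes rose in 5 of 36 members, with Hist1h2bc at 22.1 and 17.3 FPKM in R1 and 43.1 and 51.3 FPKM in 16-6. Of the 5 calls, 3 passed the filter through 16-6 alone. Hist1h2bj rested on 1 fragment in each R1 library and on 5 and 6 in those of 16-6 and lost its call when any 1 of the 4 libraries was left out (1.08 to 1.24), and Hist1h2bm was not called without the second library of 16-6 (0.92) or the first of R1 (0.80). Leaving out either of the latter libraries left 3 calls in the list. Of 82 cytosolic ribosomal proteins 80 were not called, and their median was 0.00. Rpl29 was higher, at 0.588 and 0.865 FPKM in R1 and 37.97 and 47.1 FPKM in 16-6, and Rpl10l lower (-1.61). Ribosomal protein genes have many processed copies in the genome and only unique alignments were kept, so the value of Rpl29 is uncertain. Rpl29 also passed the filter through 16-6 alone, so it could be called in that direction only.

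Of the imprinted genes, the Dlk1-Dio3 domain had 1 of 6 genes called, Dlk1, a membrane protein of the paternal allele, at 14.6 and 14.9 FPKM in R1 and 5.03 and 5.47 FPKM in 16-6. The maternal RNA Meg3 of the same domain was at 152 and 159 FPKM in R1 and 214 and 218 FPKM in 16-6 (log2 difference 0.48, SE 0.04). Imprinted genes elsewhere rose in 4 of 29 members and fell in 1, and 2 instead of 5 were called without the first R1 library. They included Nnat, a membrane protein of developing neurons (1.17), and Peg13, a paternal RNA (1.30). Of the sex chromosome markers, the Y-linked Eif2s3y was at 94.5 and 88.6 FPKM in R1 and 23.1 and 28.3 FPKM in 16-6, and the Y-linked Ddx3y fell by 1.31. Xist, the RNA that silences the X chromosome, was at 27.3 and 21.6 FPKM in R1 and 22.1 and 23.2 FPKM in 16-6 and was not called. The sex of the feeder embryos is not given in the sources used here, so the line and the feeders cannot be told apart as the source of these transcripts.

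The largest rises outside the fibroblast lists included genes of several further kinds. Apoa2, an apolipoprotein of HDL, was at 0.444 and 0.639 FPKM in R1, from 2 and 3 implied fragments, and at 24.5 and 26.2 FPKM in 16-6, from 114 and 120. The muscle ankyrin repeat gene Ankrd1 was at 2.59 and 2.82 FPKM against 34.5 and 34.7 FPKM, and the serine protease Prss23 at 4.68 and 4.96 FPKM against 47.7 and 49.2 FPKM. Lrrc15, a membrane protein known from activated fibroblasts, rose by 2.67, the peptide hormone Cck by 2.65 and the granzyme Gzme by 2.94. The pseudogene Pisd-ps3 completed the 15 (2.75). Apoa2 and Pisd-ps3 passed the filter through 16-6 alone, so they could be called in that direction only. The remaining falls among the 15 lowest were the protease inhibitor A2m (-3.24), the lysine-degrading enzyme Aass (-2.85), the EGF receptor ligand Areg (-2.79), the opioid precursor Penk (-2.68), the lipid-binding protein Fabp4 (-2.64) and the NKG2D ligand Raet1c (-2.72). Of these, A2m, Aass, Fabp4 and Raet1c passed the filter through R1 alone and could be called lower only. Raet1c is 1 of several similar genes, and without the first library of 16-6 (-2.71), the second of 16-6 (-2.72), the first of R1 (-2.58) or the second of R1 (-2.85) it was no longer called.

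Of 213 tested genes shorter than 200 bases, 21 were called, 14 higher and 7 lower, and 15 of them had at most 3 implied fragments in every library. The files list microRNA and small nucleolar RNA loci, but reads of fragmented mRNA say little about the mature RNAs. Mir692-1 was the 1 such gene named by its difference that rested on more than 6 fragments. It was at 1341 and 993.5 FPKM in R1, from 48 and 37 fragments, and was listed at 0 in both libraries of 16-6 (chr17:7099578-7099686 in mm9). Its mature sequence in RefSeq, shown because it is the microRNA locus with the most reads behind its difference, carries the seed (bases 2 to 8) in capitals.
mmu-miR-692: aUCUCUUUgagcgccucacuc
Mir3109 and Mir215, the next lowest, rested on 1 or 2 fragments in each R1 library. Of the highest, Snord70 had 2 fragments and Snord82 1 fragment in each library of 16-6 and Mir762 had 6 and 1, with R1 at or near 0 in all 3.

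The called genes were spread over the chromosomes. The median log2 difference of a chromosome lay between -0.06 and 0.03, except for chromosome 8 (-0.12, 713 genes) and chromosome Y (-0.69, 5 genes). Neighbors among the tested genes that were called in the same direction formed 8 runs of 4 or more genes. Those higher in 16-6 were 7 genes on chromosome 3 from Sprr2k to Crct1, which contain the Lce1 genes, 7 on chromosome 11 that comprise Hoxb5 to Hoxb9, Mir196a-1 and Gm53, and 6 on chromosome 15 from Hoxc10 to Hoxc4. Those lower were 4 genes on chromosome 5 with Pf4, Cxcl1, Cxcl2 and Cxcl3, 6 on chromosome 11 from Ccl5 to Gm11428, and the 6 Zscan4 genes on chromosome 7. The 2 further runs of lower genes were Slc13a5, Xaf1, Tekt1 and Smtnl2 on chromosome 11 and the predicted genes Gm8300, Gm2022, Gm5662 and Gm5039 on chromosome 12. Untested genes between the members of a run were passed over. Many members passed the filter through 1 line alone, so they could be called in that direction only. Mir196a-1 rested on 1 and 3 implied fragments in 16-6 and on 0 in R1. With 1 FPKM required in all 4 libraries, 1 run remained. Within the Ccl run, Ccl6 was at 7.58 and 10.01 FPKM in R1 and 0.681 and 0.607 FPKM in 16-6, and Ccl9 fell by 2.05. Crct1, at the end of the chromosome 3 run, was at 0 and 1.19 FPKM in R1, and its call was lost when any of the 4 libraries except the second of R1 was left out (log2 differences 0.99 to 1.69).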

How the data were processed

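RNA-seq of 2 libraries of 16-6 and 2 of R1 was compared. The libraries of lines 32, S8 and T2 were also in the fit, where the replicates of 32 added to the estimate of the spread. S8 and T2 had no replicates and added no residual degree of freedom. Per the labels, reads were aligned to mm9 with TopHat2 2.0.4 and Bowtie and quantified with Cufflinks 2.0.0 (the study's methods name a later Cufflinks release and unique alignments). The deposited FPKM of each library were computed by the authors. All values were divided by 12725.7, which sets the median library total to 1000000. Fragment numbers were implied from the deposited confidence limits.

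Genes at 1 FPKM or more in at least 1 of the 4 libraries were kept. log2(FPKM + 1) was fitted with limma 3.58.1 (R 4.3.3, eBayes with a trend) on 8 libraries in 5 groups, with 3 residual degrees of freedom and Benjamini-Hochberg adjustment. The pseudocount understates changes of low genes. The step was tested on simulated data. Tables were summarized with Python 3.11.15, pandas 2.3.3, numpy 2.4.6 and matplotlib 3.10.9. Starts in the files count from 0 (430 of 587 short genes matched the annotation so, 10 otherwise) and are given from 1.

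Libraries, 43 gene lists and rules were chosen with earlier results of these data known, so no list is independent support. Named genes were the 15 largest differences in each direction outside the fibroblast lists (at least 200 bases, 5 FPKM in the higher line, groups not overlapping). Others were up to 4 called genes per list, 21 set genes, the 3 largest short genes in each direction and runs of at least 4 neighbors. Symbol families of at least 8 tested genes were also named, if their called share was at least 3 times that of all genes. The remaining names (such as Bgn, Tgfbi, Eln, Mmp13, Des, Mylk, Cnn2, Prdm14, Cdh1, Ero1l, Pdk1, Gata2, Fzd5 and the genes named with promoters) were chosen after their values were seen. The alternatives covered pseudocount, filters, scaling, the fold minimum, the trend, the libraries in the fit, a replicate block and leaving out each replicate. Some called genes are not reported here. Measured columns other than FPKM, its limits and status were not used.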

Additional observations from a re-analysis of the deposited data

How the results depend on the processing

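With pseudocount 0.1 the called genes rose to 1663 (929 lower, 1591 outside the fibroblast lists, 15 runs of neighbors). Requiring 1 FPKM in all 4 libraries left 682 calls with 297 lower genes and 1 run of neighbors. Without a fold minimum 7628 genes were called (3526 higher, 4102 lower, 18 matrix genes lower, 7525 outside the fibroblast lists) in 215 runs. The other alternatives, namely no filter, a filter over all 8 libraries, quantile normalization, equal medians, eBayes without a trend, the 4 libraries alone, averaged 16-6 libraries, and genes of at least 200 bases, kept each of these counts within 1.5 times its value, with 959 to 1001 genes called. Leaving out 1 library gave 978 to 1021 calls, of which 886 to 914 were among the 977. The arm left with 1 library was then assumed to vary like the other groups. Of 183 named genes tested, 158 kept their direction and call under each of these alternatives that tested them and in a fit of 6 libraries added later. Genes that a filter removed were not counted as changed. With 1 FPKM required in all 4 libraries 112 of the 183 were tested, and with at least 200 bases 176. The calls lost on leaving out 1 library were 8 and 4 for the libraries of 16-6 and 8 and 5 for those of R1. Xist (-0.10) ranged from -0.26 to 0.061, the latter without the first R1 library. Among alternatives added after the data were seen, at least 10 implied fragments in 1 of the 4 libraries left 950 calls. The replicate numbers did not pair the samples (correlation of deviations -0.0971 between R1 and 16-6), and a replicate block gave 973 calls against 977 from the same 6 libraries without it. Lists with 1 or 2 calls, and genes under about 10 fragments, are at the limit of what this depth resolves. The causes of these shifts were not tested.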

Other observations

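The levels of some genes in the other iPSC lines, chosen after their values were seen, are given here as values without a test. Rpl29, at 0.588 and 0.865 FPKM in R1, was at 93.4 and 76.9 FPKM in line 32, 44.7 FPKM in S8 and 34.7 FPKM in T2, besides 37.97 and 47.1 FPKM in 16-6. Apoa2 was likewise at 17.0 FPKM or more in each iPSC library and at 0.639 FPKM or less in R1. Olig2 ranged from 4.23 to 8.66 FPKM over the 6 iPSC libraries and did not exceed 0.0207 FPKM in R1. Lce1g differed from this pattern, since it was at 0.846 FPKM or less in 32, S8 and T2 and at 25.3 and 31.4 FPKM in 16-6. This did not hold for every gene of its run. Crct1 was at 5.51 FPKM in S8, 3.41 FPKM in T2 and 1.38 and 0.685 FPKM in 32, against 2.94 and 3.77 FPKM in 16-6. Prss23 was at 47.7 and 49.2 FPKM in 16-6 and between 4.05 and 17.6 FPKM in the other iPSC libraries.

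Among fibroblast genes, Acta2 was at 77.6 and 78.02 FPKM in line 32, 156.5 FPKM in S8 and 209.8 FPKM in T2, while Col1a1 was at 29.1 and 27.8 FPKM in 32, 167 FPKM in S8 and 243 FPKM in T2. Dcn was at 11.1 FPKM or less in each library of 32, S8 and T2, below the 32.9 and 33.3 FPKM of 16-6 and far below the 216.5 and 204 FPKM of R1. Lcn2 was listed at 0 in all libraries of 32, S8 and T2. Cyp1a1, a target of the aryl hydrocarbon receptor, was at 0 and 0.0616 FPKM in R1 and at 4.59 and 5.33 FPKM in 16-6, and at 0.104 FPKM or less in the other lines.

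Gene families sharing a symbol stem that the text has not yet described included integrin alpha genes, of which Itga11, Itga5 and Itga3 were higher among 11, and annexins, of which Anxa1 and Anxa3 were higher among 9. Among 22 genes whose symbol begins with Cyp, 5 were lower and Cyp1a1 was higher. Cyp1a1 passed the filter through 16-6 alone, and 1 of the 5 lower genes through R1 alone. These families were chosen for their high share of called genes.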
